A study of Homo sapiens with 10 samples.

Results

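The elastic microfibril genes are a group of 10 genes, MFAP5, MFAP2, FBN1, FBN2, EFEMP1, FBLN1, FBLN5, LTBP1, LTBP2 and LOX, which encode the proteins of extracellular microfibrils, their partners and a crosslinking enzyme. They were followed through every probe set whose annotation gives 1 gene symbol and where that symbol is in the group, which gave 26 of the 54613 probe sets tested, or 10 of 19775 genes. The cells were HuCCT1, an established line of human cholangiocarcinoma, a cancer of the bile duct. 5 arrays held RNA of cells with an empty vector, the control, and 5 held RNA of cells with the vector labelled YAPS94A, which overexpresses a mutant of the transcriptional co-activator YAP1. The series title and sample labels name S94A, known to weaken binding to TEAD factors, whereas the design text names S127A, known to activate YAP1, and the arrays do not settle which was used. No promoter, clone, time or selection of the construct is stated in the sources used here, and both vectors were carried by the same line in serum-containing medium. The question is how the construct changed RNA of these genes.

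Microfibrils are thin extracellular fibres built from fibrillins. Microfibril-associated glycoproteins bind to them, fibulins join them to elastin and to basement membranes, and latent TGF-beta binding proteins hold inactive TGF-beta on them. Lysyl oxidase crosslinks elastin and collagen. In bile duct cancers these genes are known mainly from the fibroblasts of the stroma, whereas these arrays hold RNA of a cultured carcinoma line. In bulk RNA, fewer cells that express a gene and less RNA per cell cannot be told apart.

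The 10 arrays were alike in scale. Deposited log2 signals ran from 2.86 to 14.43, array medians lay between 6.25 and 6.28, and no pair of arrays was identical. Signals are log2 values of 1 probe set, and a difference of 1 is a 2-fold change. Because no detection calls were used here, a probe set is called dim where its mean lay below 6.27, the median of all signals, in both vectors, and very dim where it lay below 4.73, the lower quartile. YAP1 itself read higher with the construct on its 3 probe sets (differences of 0.52 ± 0.11, 0.56 ± 0.10 and 0.60 ± 0.065, SE). Markers of the labelled epithelial type were bright. KRT19, KRT7 and EPCAM read 14.07, 13.59 and 12.92 with empty vector. Of the fibroblast markers COL1A2, COL3A1, COL6A3 and PDGFRB read 5.23, 4.60, 3.98 and 5.43, and 8 of 10 were dim. The bright ones were COL1A1, at 8.83 with empty vector and 8.71 with the construct, and LUM, at 8.04 and 10.70. The summed log2 signal of the 10 fibroblast markers was 59.6 to 60.3 with empty vector and 61.4 to 62.2 with the construct. LUM, the small proteoglycan lumican, rose by 2.67 ± 0.088, PDGFRA fell by 0.43 ± 0.048 and 8 did not pass. The median difference of the 10 was -0.019, so the higher sum does not stand for a rise of most of them. The part of such cells in the results was not tested. None of 6 endothelial and 3 leukocyte markers passed on its brightest probe set (limma), while 1 of 4 smooth muscle markers did, ACTA2 (2.21 ± 0.077), and 7 of 9 biliary markers rose. These are 25% and 77.8% of the markers measured, where 34.4% of all genes passed and 17.8% were higher. Of the biliary markers that passed, MUC1 rose by 3.29 ± 0.062 and the others by only 0.13 to 0.33.

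The sequences just upstream of transcription starts are shown for 4 of the genes that changed, one that rose and 3 that fell, and for the single start that holds a TEAD motif, because the labelled mutation concerns TEAD binding. They are the 250 bases before the start, from RefSeq (GRCh38.p14), written 5′ to 3′ on the gene's strand, in lower case with any match to GGAATG (the core TEAD motif) or TGANTCA (AP-1, the same on both strands) in capitals. FBLN1 rose, FBN2, LTBP1 and LTBP2 fell, and FBN1 did not pass. For LTBP1 the first of its 3 starts in the table is shown. FBLN5 and LOX, which also changed, and the MFAP2 start that holds TGANTCA are not shown.
FBLN1, chr22:45502633-45502882, + strand: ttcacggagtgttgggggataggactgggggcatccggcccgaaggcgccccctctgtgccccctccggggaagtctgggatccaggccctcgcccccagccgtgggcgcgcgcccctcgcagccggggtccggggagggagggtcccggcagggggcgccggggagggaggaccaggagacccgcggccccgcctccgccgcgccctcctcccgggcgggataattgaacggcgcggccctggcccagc
FBN2, chr5:128538246-128538495, - strand: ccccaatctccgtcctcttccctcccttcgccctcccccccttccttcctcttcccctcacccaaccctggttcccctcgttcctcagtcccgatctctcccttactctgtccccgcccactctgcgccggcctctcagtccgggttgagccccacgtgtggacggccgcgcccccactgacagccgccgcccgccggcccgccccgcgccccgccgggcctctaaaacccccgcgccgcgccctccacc
LTBP1, chr2:32946703-32946952, + strand: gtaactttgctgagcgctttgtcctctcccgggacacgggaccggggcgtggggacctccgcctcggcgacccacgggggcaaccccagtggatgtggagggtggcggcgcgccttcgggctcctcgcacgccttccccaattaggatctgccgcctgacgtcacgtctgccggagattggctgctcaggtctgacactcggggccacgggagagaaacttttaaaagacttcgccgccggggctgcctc
LTBP2, chr14:74612238-74612487, - strand: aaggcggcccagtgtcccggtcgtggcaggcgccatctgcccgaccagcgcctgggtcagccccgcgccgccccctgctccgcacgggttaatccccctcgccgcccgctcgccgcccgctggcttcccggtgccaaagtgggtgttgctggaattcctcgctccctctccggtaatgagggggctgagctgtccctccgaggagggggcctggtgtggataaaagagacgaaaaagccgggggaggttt
FBN1, chr15:48644971-48645220, - strand: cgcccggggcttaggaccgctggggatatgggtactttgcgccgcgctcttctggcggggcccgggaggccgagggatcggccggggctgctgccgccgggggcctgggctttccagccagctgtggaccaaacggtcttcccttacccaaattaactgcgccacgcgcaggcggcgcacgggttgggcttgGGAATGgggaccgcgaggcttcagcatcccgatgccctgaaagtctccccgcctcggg
RefSeq entries matched 8 of the 10 genes, with 14 starts in all, and MFAP5 and EFEMP1 had none. Of the 14 windows 1, that of FBN1, held GGAATG on either strand, and 1, a start of MFAP2, held TGANTCA, at 2 positions that did not overlap another motif. Over all 35116 windows of the same length in the table, 11.9% held GGAATG and 6.57% held TGANTCA. A match is a string of letters and not a binding site, and no match says only that the letters are absent from these 250 bases.

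Across the group, 4 of 26 probe sets were higher with YAPS94A, 9 were lower and 13 did not pass (limma, Benjamini-Hochberg adjusted p under 0.05 over all probe sets). Among all probe sets 28.6% passed, 13.9% higher and 14.7% lower. The groups did not overlap on the same 4 higher and 9 lower probe sets, against 23% of all probe sets (11.3% higher and 11.6% lower). By gene, read on its brightest probe set, FBLN1 and FBLN5 were higher, MFAP5, FBN2, LTBP1, LTBP2 and LOX were lower, and MFAP2, FBN1 and EFEMP1 did not pass, which makes 7 of 10 genes where 34.4% of all genes passed (17.8% higher and 16.6% lower). Those 2 higher and 5 lower genes were also the ones whose groups did not overlap, against 29.1% of all genes (15.3% higher and 13.8% lower). The genes were put together with earlier results of these data known, so this share is a description. The median difference was -0.13 over the 10 genes and -0.0038 over all genes, and the median size of difference was 0.80 against 0.10. On their brightest probe sets 2 of the 10 genes were dim. The shares and medians over all genes take in many dim genes, so these comparisons are not like for like.

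**Figure D1:**
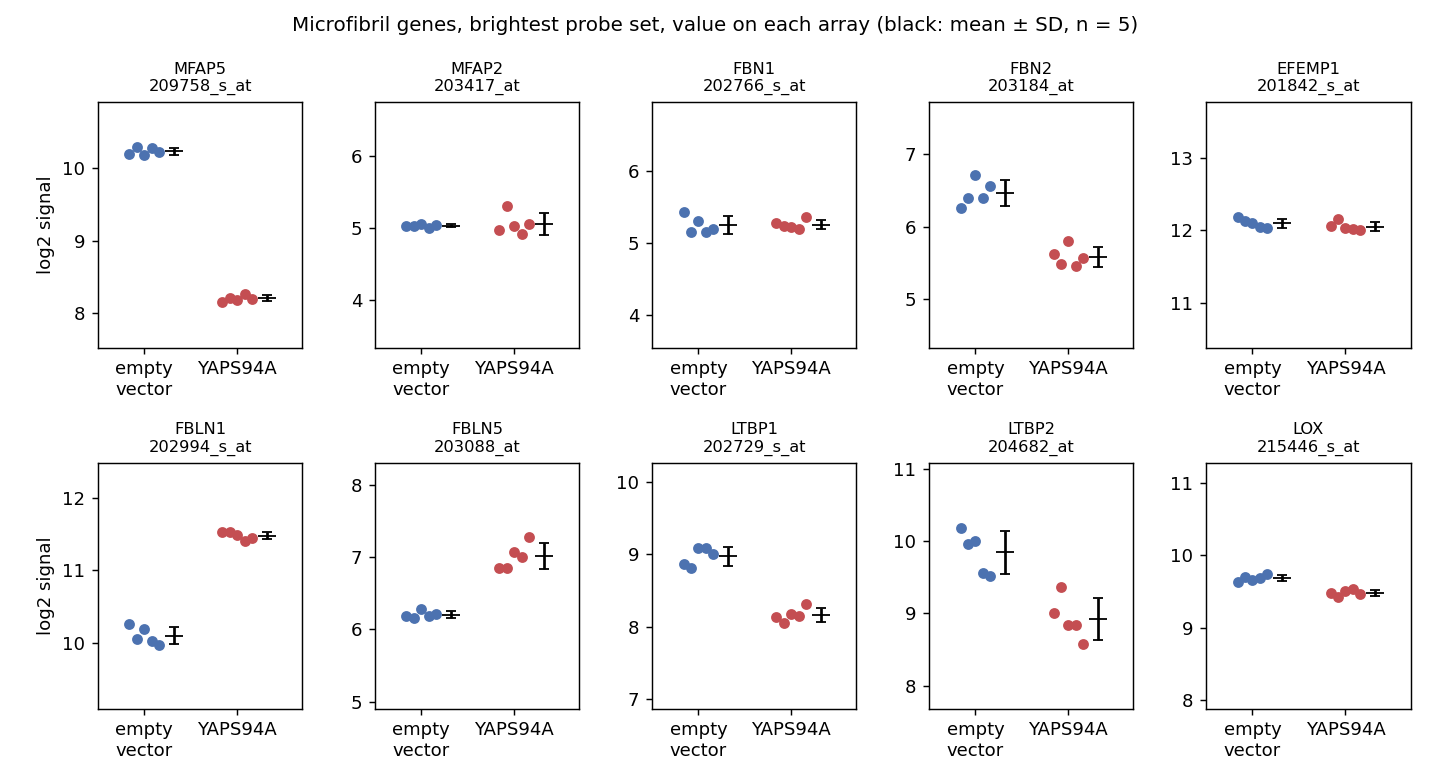
Log2 signal of the brightest probe set of each of the 10 genes on each array, with empty vector in blue and YAPS94A in red; every panel spans the same number of log2 units, and black marks give the mean ± SD (n = 5). MFAP5 lies at 10.19 to 10.29 with empty vector and at 8.15 to 8.27 with YAPS94A, while the MFAP2, FBN1 and EFEMP1 groups overlap.

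MFAP5, the microfibril-associated glycoprotein also called MAGP2, showed the largest change of the group and fell on all 3 of its probe sets. The brightest, 209758_s_at, read 10.20, 10.29, 10.19, 10.28 and 10.22 on the empty vector arrays and 8.15, 8.21, 8.18, 8.27 and 8.20 on the YAPS94A arrays. Every construct array lay far below every control array, and the arrays of either vector lay close together. The means were 10.24 ± 0.046 and 8.20 ± 0.042 (SD, n = 5 each), a 4.10-fold fall (-2.03 ± 0.038, SE, limma adjusted p = 1.27e-11). It ranked 83rd among the falls of 19775 genes.

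The other MFAP5 probe sets fell further. 213765_at read 9.21 to 9.39 with empty vector and 6.71 to 7.13 with the construct (-2.32 ± 0.077, 4.98-fold, adjusted p = 1.19e-09). 213764_s_at went from 9.13 to 9.29 down to 6.62 to 7.02 (-2.44 ± 0.071, 5.44-fold, adjusted p = 3.71e-10). All 3 stayed above the median signal in both vectors, so none of these falls ended in the dim range. Within arrays, the brightest probe set fell by less than the second, by a difference of 0.28 ± 0.099 (SE; exact two-sided permutation p = 0.00794, adjusted p = 0.0212 over the 8 genes with several probe sets). The fall is therefore given as 4.10-fold to 5.44-fold over the probe sets.

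MFAP2 (MAGP1), the close relative of MFAP5, was read by 1 probe set in the dim range. It read from 4.91 to 5.31 on the YAPS94A arrays, and the narrow empty vector group, with a mean of 5.03 ± 0.019 (SD, n = 5), lay within that range. The difference was 0.026 ± 0.064 (95% interval -0.11 to 0.17, limma adjusted p = 0.823). The MFAP5 minus MFAP2 difference within arrays went from 5.14 to 5.28 down to 2.91 to 3.35, a shift of -2.06 ± 0.076 (exact permutation p = 0.00794, the smallest possible with 5 against 5, adjusted p = 0.0106 over 4 pairs of relatives). As the MFAP2 probe set hardly moved, this shift mostly restates the fall of MFAP5 and is not separate support for it. A dim probe set can miss a change, so unequal change of the transcripts is read only as far as the MFAP2 probe set measures its gene.

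MFAP5 lies on chromosome 12 among neighbours that were also lower. Of the 30 nearest genes with a signal above the median, 18 were lower, 2 were higher and 10 did not pass, and their median difference was -0.36. Among all genes 16.6% were lower, but that share takes in dim genes and is not like for like. With only probe sets above the median tested 13079 passed, where 15643 passed with all 54613. The share among bright genes is not given here and may be higher. The nearest on the lower-numbered side were POU5F1P3, a pseudogene whose probes may read related sequences (-0.027, adjusted p = 0.801) and CLEC4A (-0.12, adjusted p = 0.0613), and on the other side RIMKLB (-0.53) and A2ML1 (-1.11), the last 2 of which passed. TMEM52B (-3.49) and OLR1 (-2.27), named after their values were seen, fell by more than MFAP5, and the glucose transporter gene SLC2A3 rose by 1.598. With the neighbour median taken off on each array MFAP5 still fell by 1.67 ± 0.046 (limma adjusted p = 1.05e-10, range over all alternatives 4.36e-12 to 2.25e-07). No other gene of the group had a neighbour median beyond 0.18 in size.

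**Figure D2:**
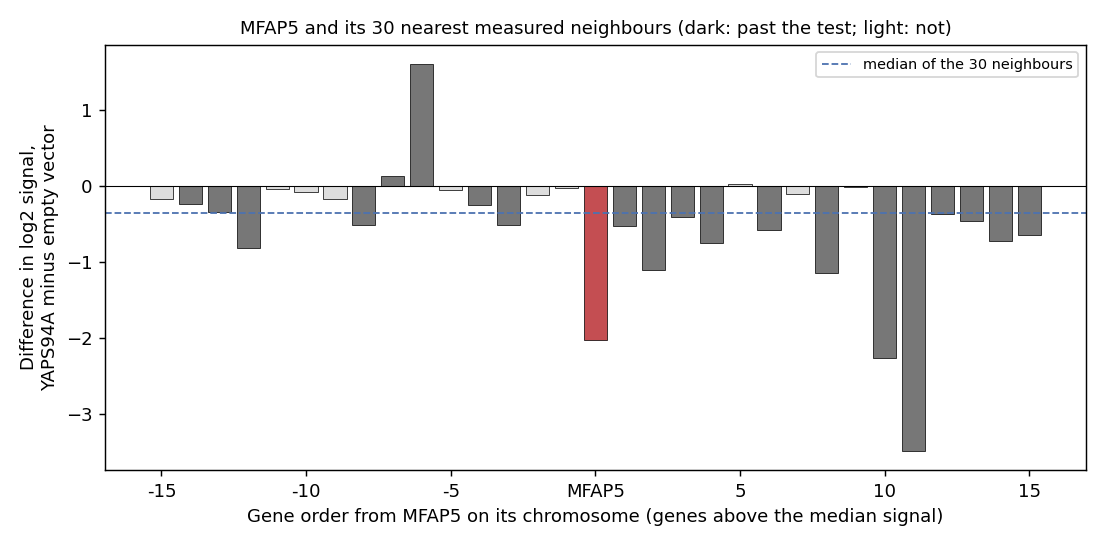
Difference in log2 signal (YAPS94A minus empty vector) of MFAP5, in red, and of its 30 nearest neighbours above the median signal, in chromosome order; dark bars passed the limma test and the dashed line is the neighbour median. The median is -0.36, MFAP5 is at -2.03, and TMEM52B and OLR1 reach -3.49 and -2.27.

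The fibrillins, FBN1 and FBN2, are the large glycoproteins that polymerise into the microfibril. FBN2, the fibrillin known mainly from development, fell on 203184_at, the 1 of its 3 probe sets outside the very dim range. It read 6.26, 6.39, 6.71, 6.40 and 6.57 with empty vector and 5.63, 5.49, 5.80, 5.45 and 5.57 with the construct. The groups did not overlap, and the difference was -0.88 ± 0.089 (1.84-fold, limma adjusted p = 1.31e-05). The construct group lay below the median signal, so the size of the fall is uncertain. The other FBN2 probe sets, 1554737_at and 215717_s_at, read 3.27 to 3.70 on all arrays and did not pass (0.010 ± 0.045 and -0.15 ± 0.061, adjusted p = 0.905 and 0.0964), and the mean of the 3 fell by 0.34.

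FBN1, the main fibrillin of adult tissue, was dim on all 3 probe sets. The brightest, 202766_s_at, read 5.15 to 5.43 with empty vector and 5.20 to 5.36 with YAPS94A (0.007 ± 0.059, 95% interval -0.12 to 0.14, limma adjusted p = 0.95). The other FBN1 probe sets differed by -0.12 ± 0.061 and -0.035 ± 0.039. Within arrays, FBN1 minus FBN2 went from -1.22 ± 0.23 to -0.33 ± 0.15 (SD, n = 5), a shift of 0.89 ± 0.12 (exact permutation p = 0.00794, adjusted p = 0.0106 over the 4 pairs), with FBN1 near the dim end throughout. Averaged over all probe sets of each gene the shift was 0.29. As FBN1 hardly moved, these shifts mostly restate the fall of FBN2 and are not separate support for it.

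The fibulins split. FBLN1 (fibulin-1), a calcium-binding matrix and basement membrane protein, rose on its 3 brighter probe sets. The brightest, 202994_s_at, read 10.26, 10.06, 10.18, 10.02 and 9.97 with empty vector and 11.53, 11.53, 11.49, 11.40 and 11.45 with the construct. All construct arrays were above all controls, by 2.61-fold in the mean (1.38 ± 0.058, SE, limma adjusted p = 8.79e-09). 202995_s_at rose by 1.53 ± 0.076 and 201787_at by 1.17 ± 0.100. Probe sets 207835_at and 207834_at were dim, at 4.05 to 5.22 on all arrays, and did not pass (0.070 ± 0.073 and 0.012 ± 0.091), and the mean of all 5 rose by 0.83. FBLN1 encodes several splice forms, and which of them each probe set reads is not given in the annotation used here.

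FBLN5 (fibulin-5), which guides elastic fibre assembly, rose on its only probe set. It read 6.18, 6.16, 6.28, 6.19 and 6.21 with empty vector and 6.84, 6.85, 7.07, 6.997 and 7.28 with YAPS94A. The groups did not overlap, and the difference was 0.81 ± 0.076 (1.75-fold, limma adjusted p = 7.51e-06). The starting level of 6.20 is just under the median signal, where a fold is less certain. FBLN1 rose more than FBLN5 within arrays, by 0.58 ± 0.11 (exact permutation p = 0.00794, adjusted p = 0.0106). With all probe sets of FBLN1 averaged, dim ones included, that shift was 0.028 (exact p = 0.802).

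EFEMP1 (fibulin-3), a bright gene here, did not pass on any of its 3 probe sets. 201842_s_at read 12.03 to 12.18 with empty vector and 12.01 to 12.15 with YAPS94A (-0.047 ± 0.044, 95% interval -0.14 to 0.050, limma adjusted p = 0.505). 201843_s_at differed by -0.061 ± 0.066 (95% interval -0.21 to 0.083). 228421_s_at differed by 0.034 ± 0.18, and its arrays spread far more, from 8.40 to 9.36 with empty vector and from 8.57 to 9.25 with the construct, so that its interval reaches from -0.37 to 0.44.

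**Figure D3:**
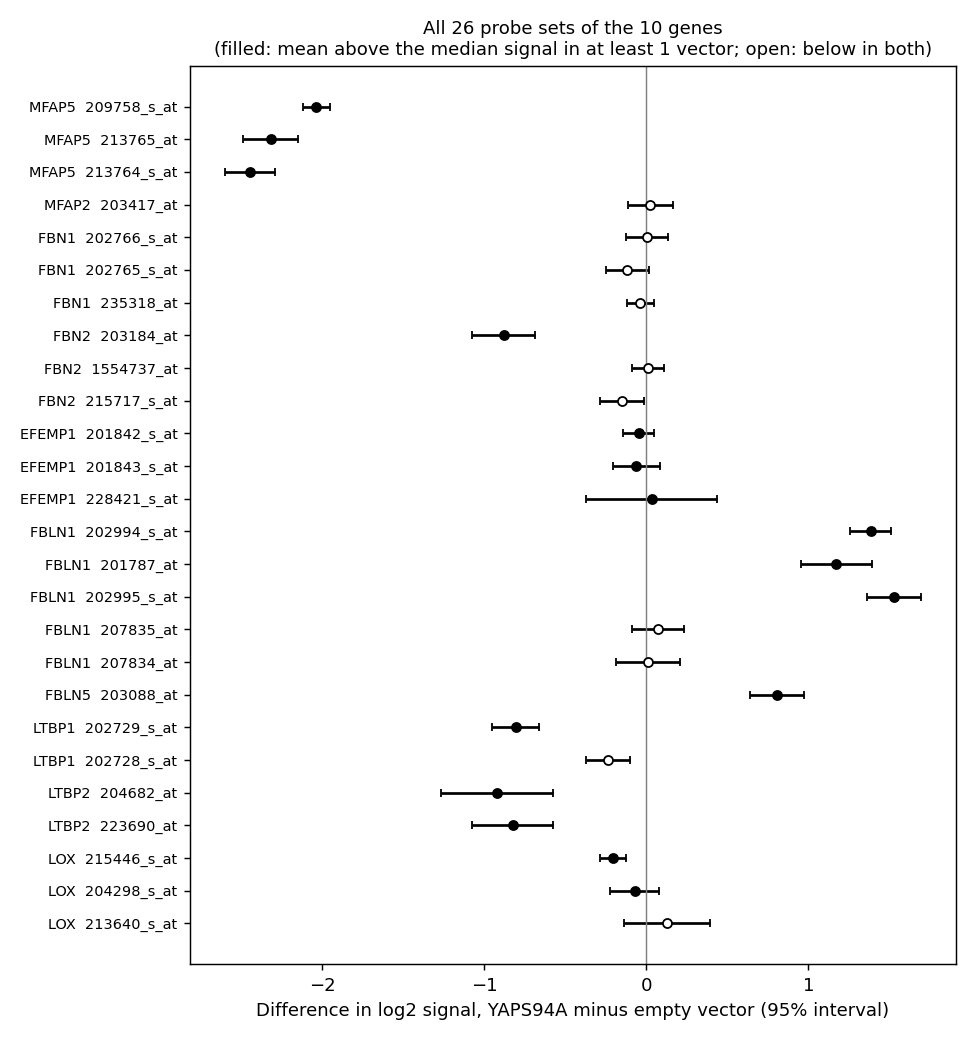
Difference in log2 signal (YAPS94A minus empty vector) of all 26 probe sets, with the 95% interval of the limma fit; filled points had a mean above the median signal in at least 1 vector, open points in neither. The MFAP5 probe sets lie between -2.03 and -2.44, the 3 brighter FBLN1 probe sets between 1.17 and 1.53, and the open points between -0.24 and 0.13.

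LTBP1 and LTBP2, of the latent TGF-beta binding protein family, fell. Their relatives LTBP3 and LTBP4 did not pass on their brightest probe sets (0.12 ± 0.047 and 0.073 ± 0.058, limma adjusted p = 0.0819 and 0.422), while a dimmer probe set of each was higher (219922_s_at by 0.50 ± 0.046 and 227989_at by 0.22 ± 0.067). LTBP1, which anchors latent TGF-beta to the matrix, read 8.87, 8.81, 9.09, 9.08 and 9.004 with empty vector on 202729_s_at and 8.13, 8.05, 8.18, 8.15 and 8.31 with YAPS94A. The groups were well apart (-0.80 ± 0.066, 1.75-fold, limma adjusted p = 2.51e-06). The dim second probe set of LTBP1, 202728_s_at, fell by 0.24 ± 0.062 (adjusted p = 0.0135), less than the first by 0.57 ± 0.12 within arrays (exact permutation p = 0.00794, adjusted p = 0.0212). The mean of both fell by 0.52.

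LTBP2, a relative that binds microfibrils but not latent TGF-beta, fell by about as much on both of its probe sets. 204682_at read 10.18, 9.96, 10.00, 9.56 and 9.51 with empty vector and 9.01, 9.36, 8.83, 8.83 and 8.58 with the construct. The groups did not overlap although each spread widely (-0.92 ± 0.16, 1.89-fold, limma adjusted p = 0.000852). 223690_at went from 8.51 to 8.84 down to 7.48 to 8.08 (-0.82 ± 0.11, adjusted p = 0.000169). On the brightest probe sets the LTBP1 and LTBP2 falls were not told apart, with a shift of LTBP1 minus LTBP2 of 0.12 ± 0.24 (SE, exact permutation p = 0.611). With the probe sets of each gene averaged LTBP1 fell less than LTBP2, by 0.35 (exact p = 0.00794), an average that takes in the dim LTBP1 probe set.

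The wide spread of LTBP2 and of one EFEMP1 probe set went with a measure of RNA quality. The measure is the 3′ minus 5′ log2 signal of the ACTB and GAPDH control probe sets, a larger value meaning a relative shortage of 5′ signal. It was 0.64 ± 0.15 with empty vector (0.48 to 0.85) and 0.59 ± 0.16 with YAPS94A (0.44 to 0.82, SD, n = 5), so the vectors overlapped. Per unit of it, in a limma fit with vector as a term, LTBP2 204682_at was higher by 1.80 ± 0.19 (adjusted p = 0.000185) and LTBP2 223690_at lower (-1.11 ± 0.25, adjusted p = 0.00862). EFEMP1 228421_s_at was lower (-2.15 ± 0.17, adjusted p = 5.6e-05) while EFEMP1 201842_s_at was higher (0.38 ± 0.11, adjusted p = 0.0299). Slopes also passed for FBLN1 202994_s_at (0.50 ± 0.15) and 201787_at (0.90 ± 0.24) and for the dim LOX 213640_s_at (-1.17 ± 0.27). The passing slopes thus had opposite signs within LTBP2 and within EFEMP1 and the same sign within FBLN1. In all 7 of the 26 probe sets had a slope past the test, against 20.5% of all probe sets. For MFAP5 no slope passed (-0.097 ± 0.13, 0.21 ± 0.27 and 0.15 ± 0.25). The measure tended to fall with array number in both vectors. It went from 0.85 on array 1 to 0.48 on array 5 with empty vector. With YAPS94A it was 0.68 and 0.82 on arrays 1 and 2 and 0.44 on array 5. The slopes therefore cannot be told apart from anything else that followed the array number.

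With the measure as a covariate the LTBP2 falls drew together and became more precise, at -0.83 ± 0.054 and -0.88 ± 0.070. EFEMP1 228421_s_at came to -0.079 ± 0.047 and still did not pass (limma adjusted p = 0.234). MFAP5 stayed at -2.04 ± 0.037.

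**Figure D4:**
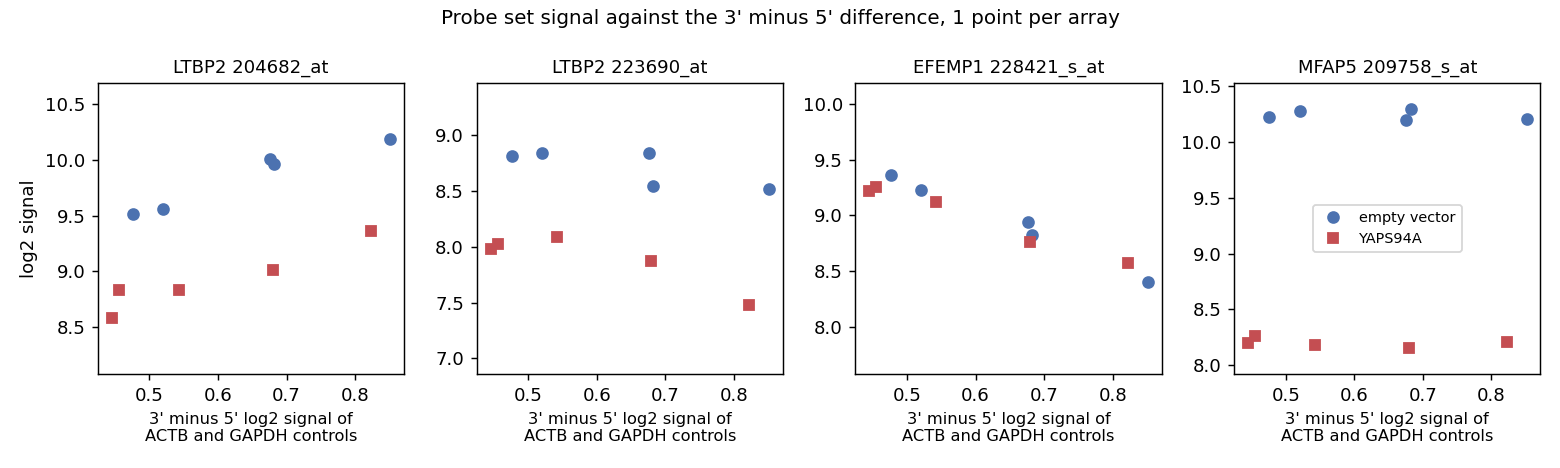
Log2 signal on each array against the 3′ minus 5′ log2 difference of the ACTB and GAPDH controls, for both LTBP2 probe sets, an EFEMP1 probe set and the brightest MFAP5 probe set (blue circles: empty vector; red squares: YAPS94A; equal y spans). LTBP2 204682_at has a slope of 1.80 per unit of the x axis and EFEMP1 228421_s_at one of -2.15, and the MFAP5 groups stay at 10.19 to 10.29 and 8.15 to 8.27.

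LOX, lysyl oxidase, which starts the crosslinking of elastin and collagen, fell slightly on its brightest probe set. 215446_s_at read 9.63, 9.70, 9.66, 9.68 and 9.75 with empty vector and 9.48, 9.43, 9.50, 9.53 and 9.46 with YAPS94A. The groups did not overlap because both were narrow, and the fall was 1.15-fold (-0.20 ± 0.037, SE, limma adjusted p = 0.00119). The second LOX probe set, 204298_s_at, differed by -0.071 ± 0.068 and the dim 213640_s_at by 0.13 ± 0.12, and neither passed (adjusted p = 0.52 and 0.502). In the mean of the 3 probe sets LOX did not pass (-0.048 ± 0.048, limma adjusted p = 0.499), and over all alternatives tried its adjusted p ran from 0.000296 to 0.499.

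Other genes of elastic fibres and microfibrils passed about as often as any gene on their brightest probe sets. Of 27 listed and measured, 7 were higher, 2 were lower and 18 did not pass, or 33.3% against 34.4% of all genes, with a median of 0.083. Over their 58 probe sets 18 were higher and 4 lower, where 13.9% of all probe sets were higher and 14.7% lower. By probe set, higher calls were thus more frequent than among all, and probe sets of 1 gene are not independent. VCAN, the large proteoglycan versican that binds fibrillin microfibrils, rose by 2.47 ± 0.049 (limma adjusted p = 1.73e-11), and its 5 probe sets rose by 2.47 to 2.80. VCAN 221731_x_at is a probe set type open to cross-hybridisation. The fibulin gene FBLN7 rose by 1.21 ± 0.073, EMILIN3 by 0.44 ± 0.065 and THSD4, which encodes the microfibril protein ADAMTSL6, by 0.23 ± 0.039. The falls were in ADAMTS6, a metalloprotease gene (-1.37 ± 0.058, adjusted p = 9.61e-09), and EMILIN2 (-0.25 ± 0.073, adjusted p = 0.0209). The other ADAMTS6 probe sets, 1570351_at and 220866_at, were very dim and did not pass (-0.19 ± 0.083 and -0.20 ± 0.073, limma adjusted p = 0.116 and 0.0604). ELN, which encodes elastin itself, differed by -0.099 ± 0.075 (adjusted p = 0.392), and MFAP4 and FBN3 were very dim. The other lysyl oxidase genes, LOXL1, LOXL2, LOXL3 and LOXL4, lay between -0.11 and 0.090 and did not pass.

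**Figure D5:**
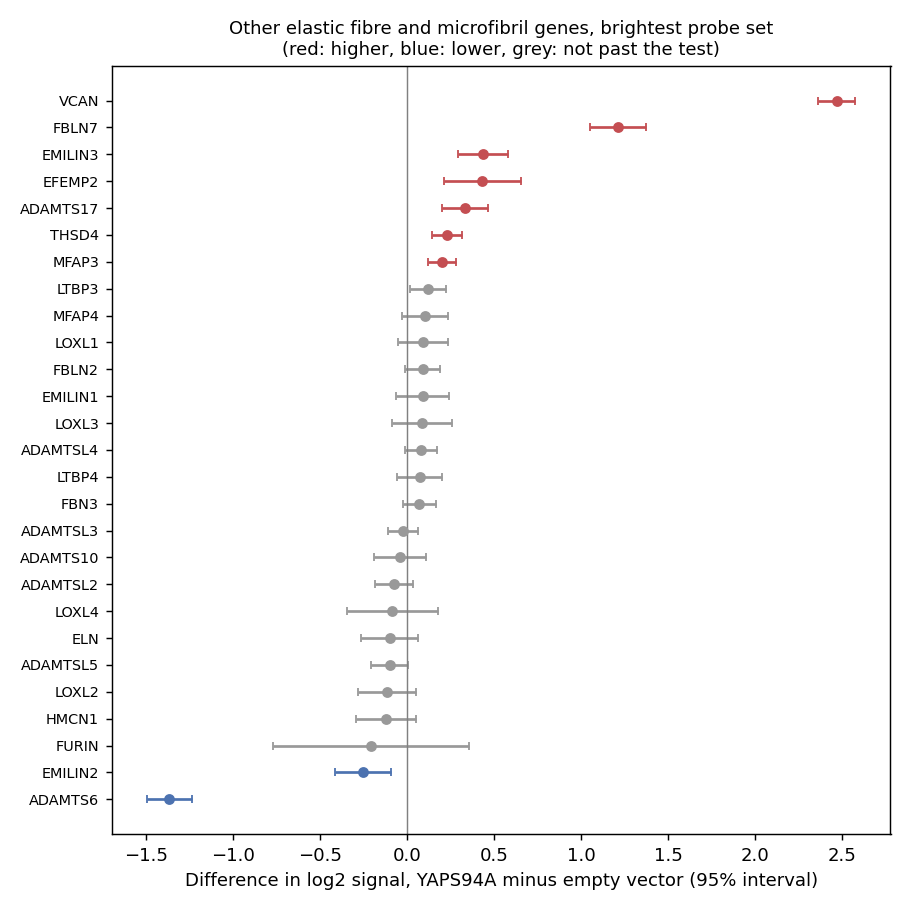
Difference in log2 signal (YAPS94A minus empty vector) of the 27 other elastic fibre and microfibril genes on their brightest probe sets, with the 95% interval (red: higher; blue: lower; grey: not past the limma test). VCAN at 2.47 and FBLN7 at 1.21 lie to the right and ADAMTS6 at -1.37 to the left, and 18 genes did not pass.

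Genes of latent TGF-beta and its activation, which act on the complexes that LTBP1 holds, went both ways. Of 12 measured, 4 passed as higher and 1 as lower (41.7% against 34.4%), and 7 did not, with a median of 0.019. Over all 49 probe sets of these genes 9 were higher and 10 lower, where 13.9% of all probe sets were higher and 14.7% lower. The balance towards higher calls thus holds only on the brightest probe sets. The integrin gene ITGB8, whose product with the alpha-v chain releases active TGF-beta, fell by 0.63 ± 0.077 (limma adjusted p = 5.76e-05). The alpha-v gene ITGAV rose by 0.26 ± 0.038, ITGB5 by 0.54 ± 0.11, the procollagen and LTBP1 protease gene BMP1 by 0.26 ± 0.063 and the ligand gene TGFB1 by 0.25 ± 0.084 (adjusted p = 0.043). The ligand genes TGFB2 and TGFB3 differed by -0.037 ± 0.037 and -0.013 ± 0.051 and did not pass. Among 14 TGF-beta target genes there were 4 rises and 1 fall (35.7%), and 9 did not pass, with a median of 0.014. Over their 35 probe sets 6 were higher and 2 lower, against the same shares of 13.9% and 14.7%. CCN2, also a standard YAP1 target, was the one that fell (-1.48 ± 0.091), and COL4A1, CDKN2B, JUNB and TGFBI rose by 0.51, 0.33, 0.20 and 0.23.

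The genes whose pattern over the 10 arrays was most like that of MFAP5, by Pearson correlation with 209758_s_at among 12219 other genes above the median signal, were GSTM3 (r = 0.9995), CXCL1 (0.9992), SRGN (0.9991), BCAT1 (0.999) and ZNF662 (0.9986). These r values mostly restate that each gene has 2 narrow groups. All 5 were lower with the construct, with differences of -0.95 (GSTM3), -2.94 (CXCL1), -4.78 (SRGN), -5.65 (BCAT1) and -5.13 (ZNF662). The correlations of the deviations from the group means were 0.88 for GSTM3, 0.46 for CXCL1, -0.14 for SRGN, 0.82 for BCAT1 and 0.49 for ZNF662, over 10 arrays that share their scaling and are given as a description. The 5 genes were picked by r values that take in these same deviations, so the choice itself can raise the deviation correlations.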

How the data were processed

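Total RNA of HuCCT1 cells was amplified (NuGEN Ovation), biotin-labelled and put on Affymetrix arrays, per the labels' protocols. The values are the log2 signals of 54675 probe sets as deposited by the authors, with their summarisation and normalization not given in the sources used here. Symbols came from the platform annotation, updated through RefSeq (GRCh38.p14). Of the probe sets 41097 had 1 symbol, 1801 several and 11777 none. 62 control probe sets were left out.

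The difference between vectors was fitted in limma 3.58.1 (R 4.3.3, lmFit and eBayes, two-sided, no covariate), with p-values adjusted by Benjamini-Hochberg over 54613 probe sets and a threshold of 0.05. The step was tested on simulated data with independent noise for each probe set and array. Such data lack the deviations that real arrays share, so that test says nothing about their effect on the calls. A gene was called by its probe set with the highest mean. Relatives, and probe sets of 1 gene, were compared by exact two-sided permutation of within-array differences. Differences are YAPS94A minus empty vector. The number of arrays limits the precision. Nothing in the labels ties the arrays of a vector to different cultures. The p-values then reflect only how these arrays spread, which may be technical.

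The members and lists were chosen with earlier results of these data known. All members were named, as were YAP1, up to 4 genes with the smallest p in each direction of a list, the 5 genes most like MFAP5, and the 2 nearest genes on each side of a member whose neighbour median passed 0.3 in size. Besides these, the genes named as not past the test, the markers, TMEM52B, OLR1 and SLC2A3 were chosen after their values were seen. Some listed genes are not reported here. Alternatives covered scaling, dim probe sets, probe set type, gene summary, variance model, array weights, a block, RNA quality, neighbours and left-out arrays.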

Additional observations from a re-analysis of the deposited data

Results flagged for a closer look

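Of 66 groups of 5 values examined, 1 held a value far from its neighbours. The very dim FBN1 probe set 235318_at read 3.88 on empty vector array 3, whereas the nearest other array of that vector read 3.77, a gap of 0.9 of the group's range. Chance flags about 1 in 20 such groups.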

How the results depend on the processing

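Over 23 alternative settings, 10 of which left out 1 array each, no called difference of the group changed direction. MFAP5 ranged from -2.32 to -1.67, the last with the neighbour median taken off, and was -2.05 to -2.02 with 1 array left out. FBLN1 (1.35 to 1.42), FBLN5 (0.74 to 0.85), LTBP1 (-0.84 to -0.78), LTBP2 (-1.03 to -0.83), FBN2 (-0.93 to -0.82) and LOX (-0.22 to -0.19) kept their calls with any array left out. Averaged over its probe sets, LOX did not pass (-0.048). Without _s_at, _x_at and _a_at probe sets fewer probe sets are tested: 9827 of all probe sets passed, and 3 genes and 4 probe sets of the group were lower and 2 probe sets higher. LTBP1, LOX and EFEMP1 have only _s_at probe sets, so they were not measured in that setting. Likewise MFAP2, FBN1 and FBN2 dropped out where only probe sets with a mean above the median were tested. In the mean of all probe sets FBN2 (-0.34), LTBP1 (-0.52) and FBLN1 (0.83) differed by less, since dim probe sets enter. In that mean FBLN1 minus FBLN5 came to 0.028 and LTBP1 minus LTBP2 to 0.35.

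The vectors share array numbers 1 to 5, and nothing says that a number marks a shared batch. Deviations of same-numbered arrays correlated at 0.0629 to 0.543 over the probe sets tested, above 0.1 in 4 of 5 pairs (0.102 to 0.59 over brightest probe sets), and 4 of 10 arrays correlated best with their own number. With the number as a replicate block no call of the 10 genes changed, LOX standing at an adjusted p of 0.00533. Sign flips over the 5 pairs gave an exact p of 0.0625, the smallest possible, for MFAP5 minus MFAP2 (-2.06), FBN1 minus FBN2 (0.89) and FBLN1 minus FBLN5 (0.58), so that scheme cannot pass 0.05. Dim signals limit MFAP2, FBN1 and most of FBN2.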
